A study of Mus musculus with 12 samples.

Results

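Label-retaining haematopoietic stem cells (HSCs) of wild-type mice were compared with wild-type HSCs that had lost the label, over all genes that an Affymetrix array measured with a probe set of a single gene symbol. The samples were chosen by their titles: 3 arrays of wild-type GFPhigh cells and 3 of wild-type GFP- cells, 6 of the 12 arrays of the series. All mice drank doxycycline water for 6 weeks and were followed for 12 weeks without it, and the HSCs were then purified from bone marrow by flow cytometry. GFPhigh cells are called quiescent and GFP- cells cycling in the labels. The other 6 arrays, Nras GFPhigh and Nras GFP- cells of NrasG12D/+ mice under the same doxycycline schedule, served only as background. The GFP transgene, the promoter that drives it, the surface markers of the sort and the age, sex and any pooling of the mice are not given in the sources used here. Each group holds 3 samples that the labels call biological replicates without saying whether they came from separate animals, so the p values and SEs measure the spread between these samples. In such bulk samples, fewer cells of a type and less RNA per cell cannot be told apart.

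HSCs sit at the top of the blood hierarchy and most of them are outside the cell cycle at any time. When a stable GFP label is switched off, each division dilutes it, so cells that remain bright have divided rarely since. Rarely dividing HSCs are known to hold the strongest long-term repopulating activity, and their quiescence depends on CDK inhibitors such as p57, on low activity of CDK6, and on transcription factors of the FOXO and GFI families.

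The cells carried HSC transcripts in both groups. Of the HSC markers Kit, Slamf1, Procr, Mecom, Hlf and Meis1, 6 of 6 lay above the median of their array on all 6 arrays. Markers of more advanced progenitors had lower mean signals in the label-retaining cells. Cd34, a sialomucin that long-term HSCs of the adult mouse lack, read 417, 1506 and 805 intensity units in GFPhigh replicates 1, 2 and 3, against 3537, 2987 and 2050 in GFP- replicates 1, 2 and 3; signals below are given in this order of replicates. Flt3, the receptor of multipotent progenitors, read 103, 70.7 and 316 in GFPhigh cells and 526, 302 and 460 in GFP- cells, with 1 GFPhigh sample inside the GFP- range. Cd48, a marker that HSCs lack, read 23.3, 20.0 and 3.9 in GFPhigh cells and 391, 26.9 and 25.8 in GFP- cells, and it did not pass the filter on low signals.

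Every array had been scaled to the same trimmed mean of 500, and the array medians were 87.2, 56.8 and 113.9 in GFPhigh cells and 101, 80.1 and 95.4 in GFP- cells. GFPhigh replicate 2 stood apart: its correlations with the other 5 arrays over the tested genes were the 5 lowest, its array weight in limma was 0.318 against 0.717 to 1.657 for the others, and its median was the lowest. Gapdh control probe sets at the 3' and the 5' end had a signal ratio of 4.17, 4.48 and 2.57 in GFPhigh cells and 3.68, 3.52 and 2.6 in GFP- cells. In both groups sex-linked transcripts set replicate 3 apart from replicates 1 and 2, with the X-silencing transcript Xist at 145 against 6832 and 7968 in GFPhigh cells and 102 against 5777 and 7910 in GFP- cells. Main values are also given without GFPhigh replicate 2, within replicates 1 and 2, and between the samples numbered 3, where they differ.

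No single gene passed the test. Of 10377 genes tested, limma called 0 at a Benjamini-Hochberg adjusted p under 0.05 (0.0%), the smallest adjusted p being 0.862. The unadjusted p was under 0.05 for 544 genes (5.24%), 275 of them higher (2.65%) and 269 lower (2.59%) in GFPhigh cells. In 566 genes (5.45%) all 3 GFPhigh samples were above all 3 GFP- samples, and in 632 genes (6.09%) all 3 were below, 11.5% in all. The share at an unadjusted p under 0.05 is close to what that threshold gives where no gene differs. With 3 samples in each group, some genes also separate fully with no true difference. A lack of overlap therefore does not by itself mark a gene as changed. The median standard error (SE) of a log2 fold change, GFPhigh minus GFP-, was 0.62, and ran from 1.16 for genes with a geometric mean signal under 100 to 0.19 for genes with one of 3000 or more. A value after ± is the SE from limma, and no gene named has an adjusted p under 0.862. Gene groups are described by their counts, beside 47.2% of all tested genes above 0 and 52.8% below 0, and by their median log2 fold change, beside -0.04 for all tested genes. Every count of members without overlap stands beside the 5.45% higher and 6.09% lower of all tested genes. The deposited table carries no detection calls, so a signal below the median of its array may be background, and a log2 fold change that rests on such signals is also given with a pseudocount of 100 where that moves it by more than 1.5 times. Most genes are read from 1 of several probe sets, the one of highest signal, and among genes named below without that remark the probe sets disagreed in sign for Alcam, Ccnd2, Ccnd3, Cd4, Cdkn1a, Cdkn1b, Cycs, Dnmt3a, Eed, Erg, Ezh1, Fancd2, Foxo3, Grb10, Hmmr, Incenp, Mcm6, Meis1, Ndn, P4ha1, Rbpj, Runx1, Rxra, Slamf1, Tanc2, Ttc28, Zfp982 and Zmynd19.

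**Figure D1:**
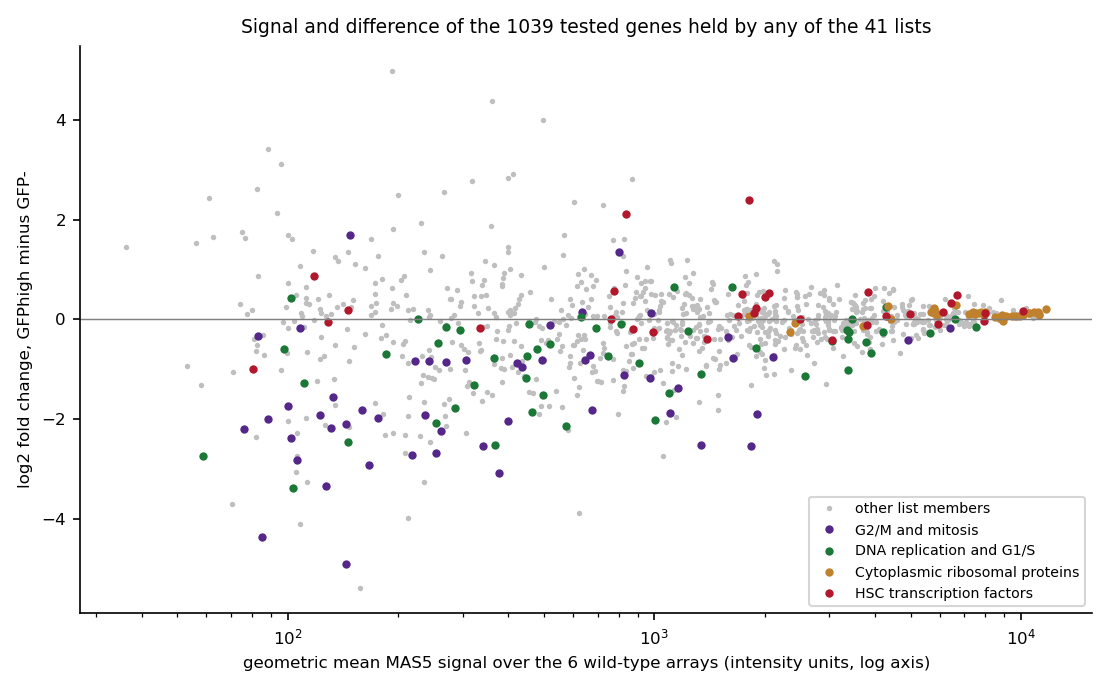
Mean MAS5 signal over the 6 wild-type arrays (horizontal, intensity units on a log axis) and log2 fold change, GFPhigh minus GFP- (vertical), for the 1039 tested genes held by any of the 41 gene lists; each point is 1 gene. G2/M and mitosis genes lie below 0 at nearly all signals with 4 of 51 above it, cytoplasmic ribosomal protein genes lie close to 0 at high signal, and the spread narrows as the signal rises.

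The list with the lowest median among those with 10 or more tested members was that of G2 and mitosis. Of 51 tested genes of this list, 47 were lower in GFPhigh cells and the median log2 fold change was -1.73. In 14 of the 51 the 3 GFPhigh samples were all below the 3 GFP- samples, against 6.09% of all genes, and in 1, the kinesin Kif23, they were all above. The list score, the median deviation of the genes from their own mean over the 6 arrays, was 0.11, -1.80 and -0.13 in GFPhigh cells and 1.06, 0.25 and 1.23 in GFP- cells. All 3 GFPhigh scores were below all 3 GFP- scores, and GFPhigh replicate 2 was by far the lowest. Without that array 41 of 51 genes were lower and the median was -0.85. It was -1.76 within replicates 1 and 2, -1.37 between the samples numbered 3, and -0.92 with a pseudocount of 100, which damps changes at low signal. A gene could pass the filter on low signals through the GFP- arrays alone. With no filter 52 of 56 genes were lower and the median was -1.47. With the filter at the 75th percentile of each array 21 of 24 were lower and the median was -1.03. A gene could pass this stricter filter through the GFP- arrays alone too, so only the value with no filter avoids that selection.

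Cdk1, the mitotic kinase, read 150, 67.8 and 177 in GFPhigh cells and 459, 440 and 472 in GFP- cells. The 3 GFP- samples lay close together and above every GFPhigh sample, with a log2 fold change of -1.91 ± 0.69 (SE). Cks2, which binds CDK1, read 1301, 408 and 1828 in GFPhigh cells and 3923, 5615 and 2242 in GFP- cells, with a log2 fold change of -1.89 ± 0.57, or -1.25 without GFPhigh replicate 2. Ccna2, cyclin A2, overlapped between the groups, since GFPhigh replicate 1 read 2483 against 2027, 1772 and 2579 in GFP- cells, while GFPhigh replicates 2 and 3 read 120 and 638. Mki67, the Ki-67 proliferation antigen, also overlapped, at 4041, 51.6 and 2090 in GFPhigh cells and 5104, 3793 and 4461 in GFP- cells. Its log2 fold change of -2.54 ± 1.33 was -0.61 without GFPhigh replicate 2.

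Nuf2, a subunit of the NDC80 kinetochore complex, read 107, 3.1 and 54.8 in GFPhigh cells and 736, 931 and 709 in GFP- cells (-4.90 ± 1.27). With a pseudocount of 100 the value was -2.57, and it was -3.36 without GFPhigh replicate 2. Its complex partner Ndc80 overlapped, at 250, 328 and 148 in GFPhigh cells and 344, 260 and 752 in GFP- cells. Cenpf, a kinetochore protein of G2 and mitosis, read 182, 54.2 and 288 in GFPhigh cells and 1112, 517 and 960 in GFP- cells, with a log2 fold change of -2.53 ± 0.77. Birc5, survivin of the chromosomal passenger complex, read 120, 48.9 and 106 in GFPhigh cells and 641, 445 and 615 in GFP- cells (-2.71 ± 0.71, and -1.80 with a pseudocount of 100). Its partner Cdca8, borealin, read 1678, 1524 and 1672 in GFPhigh cells and 2536, 2237 and 3608 in GFP- cells, with no overlap and -0.75 ± 0.29. Incenp of the same complex overlapped between the groups. Spc25, another NDC80 subunit, the separase inhibitor Pttg1, the condensin subunit Ncaph, the spindle protein Hmmr and the CDK1-binding Cks1b were free of overlap too, at -3.08, -2.52, -2.19, -2.17 and -0.42. With a pseudocount of 100, Spc25, Ncaph and Hmmr had -1.66, -0.86 and -1.16. Without GFPhigh replicate 2, Spc25, Pttg1 and Ncaph had -0.84, -1.08 and -1.34.

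The remaining members lower without overlap were Top2a, given below, Melk, a mitotic kinase, at 6.8, 49.4 and 19.5 in GFPhigh cells against 290, 426 and 469 in GFP- cells, and Nek2, a centrosomal kinase, at 69.2, 25 and 35.9 in GFPhigh cells against 145, 538 and 288 in GFP- cells. Melk had a log2 fold change of -4.37 ± 0.99, or -1.98 with the pseudocount of 100. Nek2 had -2.83 ± 0.90, or -1.47 with that pseudocount, and its 4 probe sets ran from -3.78 to 0.69. Top2a, the topoisomerase that untangles replicated chromosomes, read 783, 387 and 580 in GFPhigh cells and 1658, 879 and 1235 in GFP- cells (-1.12 ± 0.50). Smc4, a condensin subunit of high signal, differed little, at 4858, 7636 and 5830 in GFPhigh cells and 6631, 6948 and 6800 in GFP- cells. Members that stood higher in GFPhigh cells were few: Kif23 read 986, 1972 and 1072 in GFPhigh cells and 862, 154 and 948 in GFP- cells, and Nusap1, Kif20b and Cdc20 overlapped. Other probe sets of these 3 overlapping genes gave values down to -1.64, -2.97 and -2.95, so their direction is not settled.

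**Figure D2:**
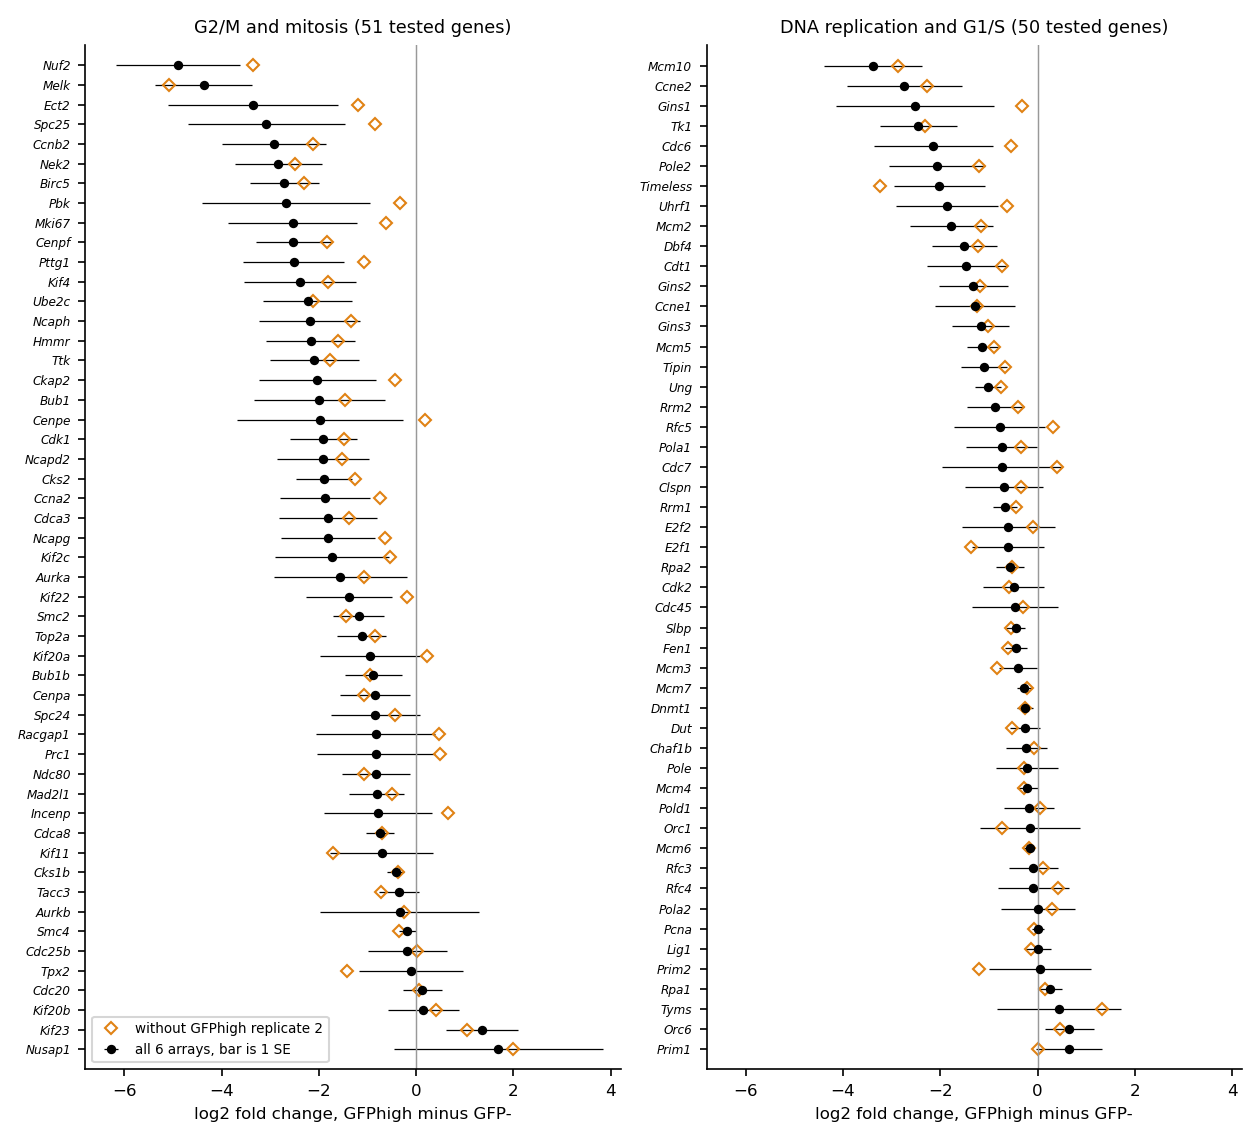
Log2 fold change, GFPhigh minus GFP- (horizontal), of every tested gene of the G2/M list (left, 51 genes) and the replication list (right, 50 genes); black points with bars are all 6 arrays ± 1 SE, and open diamonds leave out GFPhigh replicate 2. Of the 51 G2/M diamonds 40 sit nearer to 0 than their points, and 41 lie below 0.

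The promoters of mitotic genes are known to share CCAAT boxes, bound by the factor NF-Y, and the cell cycle homology region (CHR). The CHR is bound by the DREAM complex, which holds these genes silent outside the cycle. The 250 bases before the first listed start of Cdk1, Cenpf, Nuf2 and Mcm5 are shown because these genes had no overlap between the groups and stand for the mitotic and replication lists. Sequences are from RefSeq on build GRCm38.p6, 5′ to 3′ in the direction of transcription, with CCAAT or its reverse complement ATTGG and the CHR letters TTTGAA in capitals. Cdk1 lies at chr10:69352913-69353162 on the minus strand, Cenpf at chr1:189688087-189688336 on the minus strand, Nuf2 at chr1:169531465-169531714 on the minus strand and Mcm5 at chr8:75109259-75109508 on the plus strand.
Cdk1: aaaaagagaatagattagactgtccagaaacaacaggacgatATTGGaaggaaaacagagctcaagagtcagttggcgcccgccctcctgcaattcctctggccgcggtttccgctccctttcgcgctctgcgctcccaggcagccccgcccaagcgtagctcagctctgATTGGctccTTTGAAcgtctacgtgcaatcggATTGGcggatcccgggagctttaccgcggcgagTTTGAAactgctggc
Cenpf: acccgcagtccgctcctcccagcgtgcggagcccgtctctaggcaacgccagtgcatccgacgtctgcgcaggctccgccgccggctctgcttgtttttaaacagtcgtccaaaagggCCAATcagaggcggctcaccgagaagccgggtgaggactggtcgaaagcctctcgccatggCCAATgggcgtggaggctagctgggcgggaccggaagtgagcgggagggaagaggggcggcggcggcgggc
Nuf2: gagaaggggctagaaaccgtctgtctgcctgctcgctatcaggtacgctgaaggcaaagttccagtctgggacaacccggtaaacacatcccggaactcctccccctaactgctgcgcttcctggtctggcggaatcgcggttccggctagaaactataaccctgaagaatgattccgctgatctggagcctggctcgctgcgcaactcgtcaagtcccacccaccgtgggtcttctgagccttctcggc
Mcm5: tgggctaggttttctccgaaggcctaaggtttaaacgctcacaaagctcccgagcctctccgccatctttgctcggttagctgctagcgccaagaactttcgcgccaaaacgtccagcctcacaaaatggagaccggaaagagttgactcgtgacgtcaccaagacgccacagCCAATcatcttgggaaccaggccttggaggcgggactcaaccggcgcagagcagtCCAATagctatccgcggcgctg
Cdk1 held 3 CCAAT boxes and 2 CHR matches, Cenpf and Mcm5 held 2 CCAAT boxes each and no CHR match, and Nuf2 held 0 of either. Counting both strands, CCAAT occurred in 32 of the 43 G2/M genes with a promoter in the table (74.4%), against 36.8% of the 8496 tested genes with one. TTTGAA occurred in 15 of the 43 (34.9%) against 10.5%, and both together in 14 (32.6%) against 4.1%. The E2F letters TTCCCGC occurred in 10 of 43 replication genes (23.3%) and 0 of 43 G2/M genes, against 6.94% of tested genes. These are matches of letters in a fixed window, not binding sites.

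DNA replication and G1/S genes were lower in GFPhigh cells by less. Of 50 tested, 42 were lower in GFPhigh cells with a median of -0.59, and 10 were lower without overlap and 0 higher. The list score was 0.02, -0.64 and -0.21 in GFPhigh cells and 0.49, 0.10 and 0.60 in GFP- cells, with no overlap. The median was -0.48 without GFPhigh replicate 2, -0.37 within replicates 1 and 2 and -0.74 between the samples numbered 3. Mcm5, a subunit of the replicative helicase, read 2648, 1239 and 1597 in GFPhigh cells and 4320, 3346 and 3910 in GFP- cells (-1.14 ± 0.32). Of the other helicase subunits, Mcm2 overlapped, at 158, 67.2 and 347 in GFPhigh cells and 640, 238 and 971 in GFP- cells (-1.77 ± 0.85, and -1.17 without GFPhigh replicate 2), and Mcm4, Mcm6 and Mcm7 had -0.21, -0.16 and -0.27.

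Further members were free of overlap. Mcm10, which helps to load the replication fork, read 82.1, 15.8 and 25.2 in GFPhigh cells and 190, 250 and 782 in GFP- cells (-3.38 ± 1.0, and -1.69 with a pseudocount of 100). Tk1, the thymidine kinase of S phase, read 42.8, 51.7 and 111 in GFPhigh cells and 349, 243 and 471 in GFP- cells (-2.45 ± 0.79, and -1.42 with the pseudocount). Ung, which removes uracil from DNA, read 2637, 1653 and 3065 in GFPhigh cells and 5397, 4285 and 4770 in GFP- cells (-1.02 ± 0.26). Rrm1, the large subunit of ribonucleotide reductase, and Slbp, which binds histone mRNA, had no overlap either, at -0.67 ± 0.25 and -0.45 ± 0.19. In contrast Pcna, the sliding clamp, did not separate the groups. It read 6975, 7406 and 5632 in GFPhigh cells and 6397, 6520 and 6778 in GFP- cells, with a log2 fold change of 0.01 ± 0.13, so that a difference of the size of Mcm5 lies far outside its error.

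Nucleotide and one-carbon genes, which supply DNA synthesis, were lower in 24 of 31 with a median of -0.27, 5 of them lower and 1 higher without overlap. Dck, a salvage kinase for deoxynucleosides, read 341, 110 and 512 in GFPhigh cells and 830, 1012 and 853 in GFP- cells (-1.74 ± 0.67). Psat1, of serine synthesis, read 3645, 2306 and 3723 in GFPhigh cells and 5459, 4527 and 4443 in GFP- cells (-0.60 ± 0.23). DNA repair genes were lower in 26 of 43 with a median of -0.36, 5 lower and 0 higher without overlap, and 2 of the 5 belong to S-phase repair: Rad54l, of homologous recombination, read 394, 432 and 288 in GFPhigh cells and 868, 1944 and 667 in GFP- cells (-1.51 ± 0.57), and Fancd2, of crosslink repair, had -1.98 ± 0.90, or -0.99 with a pseudocount of 100. The scores of both lists were lower in all 3 GFPhigh samples than in all 3 GFP- samples. Without GFPhigh replicate 2 the medians were -0.11 for nucleotide genes and -0.18 for repair genes. Between the samples numbered 3, which leave that array out as well, they were -0.25 and -0.20.

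**Figure D3:**
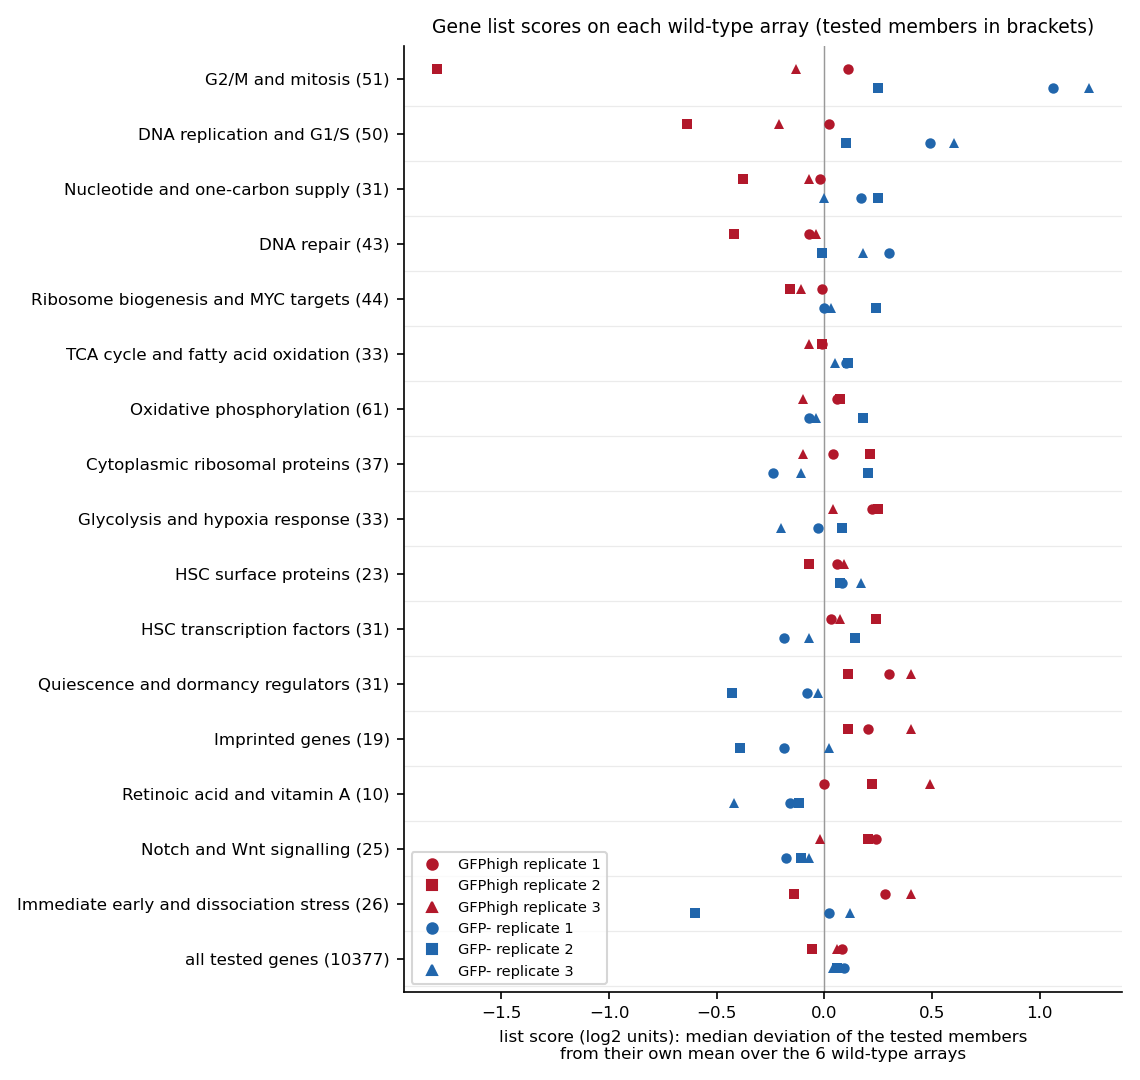
Score of 17 gene sets on each wild-type array (horizontal, log2 units), GFPhigh arrays above GFP- arrays within each set and symbols for the replicate number; tested members are in brackets. GFPhigh and GFP- scores do not overlap for the G2/M, replication, nucleotide, repair, ribosome biogenesis, TCA cycle, quiescence, imprinted, retinoic acid and Notch/Wnt lists. These are all the lists without overlap among the 41. Every list left out of the figure overlaps, so the figure overstates their share. With 3 samples in each group, some lists also separate with no true difference. For the TCA cycle list the highest GFPhigh score was -0.01 and the lowest GFP- score 0.05.

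The regulators of the G1 phase were split. Of 24 tested G1 cyclins, CDK inhibitors and pocket proteins 14 were lower and 10 higher, with a median of -0.06, 4 higher and 2 lower without overlap. Cdkn1c, the CDK inhibitor p57 that holds HSCs in quiescence, read 1520, 2694 and 1012 in GFPhigh cells and 278, 538 and 230 in GFP- cells. Every GFPhigh sample was above every GFP- sample, with a log2 fold change of 2.30 ± 0.58. Cdk6, the kinase whose level sets how quickly human HSCs leave quiescence, read 680, 649 and 1537 in GFPhigh cells and 2324, 2317 and 2961 in GFP- cells (-1.52 ± 0.42), and its 3 probe sets ran from -2.73 to -1.52. Its homologue Cdk4 overlapped and had -0.33 ± 0.31.

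Among the D-type cyclins, which activate these kinases, Ccnd3 was higher without overlap (1211, 1167 and 1465 in GFPhigh cells, 988, 384 and 1105 in GFP- cells) and Ccnd1 and Ccnd2 had 0.50 ± 0.35 and 0.24 ± 0.14 with overlap. The other CDK inhibitors of the CIP family, Cdkn1a (p21) and Cdkn1b (p27), overlapped, at 1.03 ± 0.98 and -0.23 ± 0.30. Of the pocket proteins that restrain E2F, Rbl2 (p130) read 2760, 2319 and 2749 in GFPhigh cells and 1299, 1854 and 1075 in GFP- cells (0.92 ± 0.32). Rb1 was lower on its brightest probe set, at 187, 59.5 and 194 in GFPhigh cells and 390, 730 and 630 in GFP- cells, but its 2 probe sets gave -2.13 and 2.74, so its direction is not settled.

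**Figure D4:**
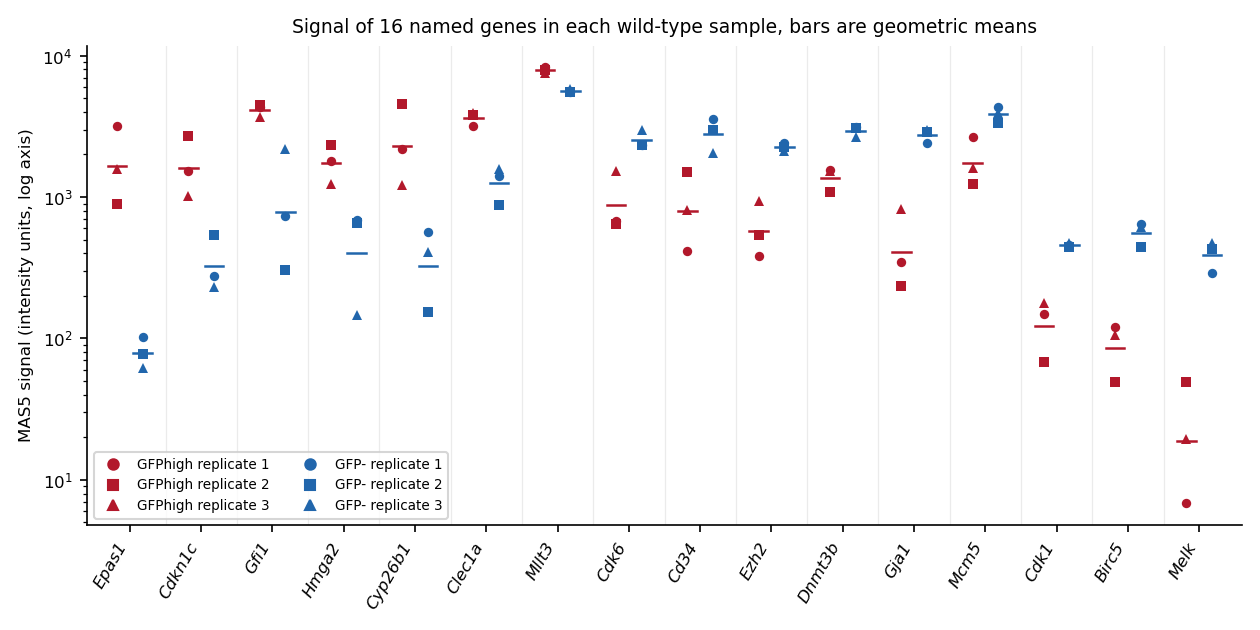
MAS5 signal (vertical, intensity units on a log axis) of 16 named genes in each wild-type sample, GFPhigh in red left of GFP- in blue; symbols mark the replicate number and bars the geometric mean of 3 samples. All 16 come from the named genes whose groups do not overlap, so their separation follows from the choice of genes. The smallest log2 fold change in size is that of Mllt3, at 7586 to 8271 in GFPhigh cells and 5500 to 5823 in GFP- cells.

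HSC surface proteins as a list did not shift: 12 of 23 were higher and the median was 0.01. Within it, 4 members were lower and 1 higher without overlap. Cd34 had a log2 fold change of -1.81 ± 0.50. Cd244a, the SLAM receptor 2B4 of multipotent progenitors, read 2.9, 29.6 and 168 in GFPhigh cells and 1244, 691 and 1212 in GFP- cells. The size of its difference depends on the pseudocount, at -5.38 ± 1.34 on the log2 scale and -2.87 with a pseudocount of 100, and its second probe set gave -0.31. Itga2b (CD41) was lower without overlap, at 51.4, 244 and 260 in GFPhigh cells and 502, 386 and 580 in GFP- cells, and so was Cd27, a marker of short-term repopulating cells, at 1460, 1706 and 1381 in GFPhigh cells against 2561, 1928 and 2247 in GFP- cells. Alcam (CD166) was the 1 member higher without overlap, at 3265, 3404 and 3379 in GFPhigh cells and 1913, 2675 and 1903 in GFP- cells (0.65 ± 0.24).

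Receptors used to enrich long-term HSCs were higher on average but overlapped. Procr (EPCR) read 5135, 8405 and 3408 in GFPhigh cells and 3280, 3707 and 3923 in GFP- cells (0.54 ± 0.30), and the GFPhigh sample numbered 3 was below that of GFP-. Slamf1 (CD150) had 1.14 ± 0.60 and Tek (TIE2) 0.76 ± 0.44. Kit, whose product is a marker of HSCs, read 2650, 3433 and 3110 in GFPhigh cells and 3079, 3371 and 3820 in GFP- cells (-0.16 ± 0.21).

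HSC transcription factors were higher in 20 of 31 with a median of 0.12, and 5 were higher and 0 lower without overlap. Gfi1, a repressor needed to limit HSC division, read 4324, 4454 and 3700 in GFPhigh cells and 736, 305 and 2195 in GFP- cells (2.39 ± 0.62). GFP- replicate 3 was the nearest to the GFPhigh samples, and without it the log2 fold change was 3.13. Hmga2, a chromatin factor that promotes self-renewal of fetal HSCs, read 1795, 2346 and 1244 in GFPhigh cells and 686, 654 and 145 in GFP- cells (2.11 ± 0.67). Mllt3, which sustains HSC self-renewal, read 8271, 7905 and 7586 in GFPhigh cells and 5500, 5573 and 5823 in GFP- cells (0.49 ± 0.11), and the log2 fold change ran from 0.46 to 0.52 as any 1 array was left out.

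The remaining core factors differed little. Mecom read 7990, 7484 and 6292 in GFPhigh cells and 5486, 7338 and 4673 in GFP- cells (0.33 ± 0.18), and Hlf, Runx1, Erg and Lmo2 had log2 fold changes of 0.15, 0.07, 0.10 and 0.17. Meis1 overlapped and had -0.41 ± 0.35, but 0.01 without GFPhigh replicate 2. With each array centred on its median, a scaling that moved the median of all tested genes to 0.11 and the share of genes above 0 to 5992 of 10377 (4896 as reported), the transcription factor median was 0.27.

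Quiescence regulators were higher in 21 of 31 with a median of 0.35, 8 higher and 1 lower without overlap. Their score was 0.30, 0.11 and 0.40 in GFPhigh cells and -0.08, -0.43 and -0.03 in GFP- cells, with no overlap. The median was 0.50 without GFPhigh replicate 2, 0.25 within replicates 1 and 2, 0.22 between the samples numbered 3, and 0.06 to 0.50 as any 1 array was left out. Beside Cdkn1c and Gfi1, Foxo1, which holds HSCs in a low-oxidant quiescent state, read 904, 2640 and 1060 in GFPhigh cells and 700, 167 and 164 in GFP- cells (2.35 ± 0.73). Its family member Foxo3 did not separate the groups, at 5645, 4951 and 5176 in GFPhigh cells and 5148, 5112 and 5404 in GFP- cells. Ndn (necdin), a growth suppressor, read 3709, 2329 and 3218 in GFPhigh cells and 1360, 1600 and 1701 in GFP- cells (0.97 ± 0.29).

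Cited2, a transcriptional coregulator needed for HSC maintenance, read 5526, 6341 and 4846 in GFPhigh cells and 3445, 3321 and 4214 in GFP- cells (0.61 ± 0.18). The Kruppel-like factors Klf6 and Klf2 were higher without overlap, at 0.64 ± 0.19 and 1.18 ± 0.62. They belong to the immediate early list as well, in which 17 of 26 genes were higher with a median of 0.20, 4 higher and 1 lower without overlap. The median of that list was 0.52 without GFPhigh replicate 2 and -0.04 to 0.52 as any 1 array was left out. Immediate early genes are also induced when tissue is dissociated, and the part of dissociation in their difference was not tested. Vldlr, a lipoprotein receptor of the quiescence list chosen after its values were seen, was lower without overlap, at 704, 1082 and 439 in GFPhigh cells and 1310, 2425 and 1964 in GFP- cells.

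Imprinted genes, expressed from 1 parental allele, were higher in 14 of 19 with a median of 0.26, 4 higher and 0 lower without overlap. With no filter 20 of 29 of these genes were higher and the median was 0.27. Their scores did not overlap, at 0.20, 0.11 and 0.40 in GFPhigh cells and -0.19, -0.39 and 0.02 in GFP- cells, and the median between the samples numbered 3 was -0.01. Rian and Meg3, neighbouring maternally expressed non-coding RNAs, were 2 of the 4, with Cdkn1c and Ndn. Rian read 2487, 343 and 1487 in GFPhigh cells and 17.6, 51.7 and 44.5 in GFP- cells (4.98 ± 0.93, and 3.15 with a pseudocount of 100), and its 4 probe sets ran from 1.33 to 4.98. It passed the filter on low signals through its GFPhigh arrays alone. Meg3 read 1107, 2417 and 2935 in GFPhigh cells and 48.3, 128 and 307 in GFP- cells (4.0 ± 0.77), with 11 probe sets from -0.51 to 5.99. Grb10, an imprinted adaptor that dampens growth factor signalling, had 0.27 with overlap.

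Retinoic acid genes were higher in 7 of 10 with a median of 0.38, 4 higher and 0 lower without overlap. A gene could pass the filter on low signals through the GFPhigh arrays alone. With no filter 12 of 19 were higher and the median was 0.27. Cyp26b1, the enzyme that degrades retinoic acid, read 2192, 4543 and 1218 in GFPhigh cells and 562, 153 and 408 in GFP- cells (2.81 ± 0.67). Rara, retinoic acid receptor alpha, read 151, 1155 and 140 in GFPhigh cells and 24.0, 29.1 and 28.0 in GFP- cells, and 2 of its GFPhigh values are close to the array median. It passed the filter through its GFPhigh arrays alone. Its log2 fold change of 3.43 ± 1.05 was 1.73 with a pseudocount of 100. Rxra, the heterodimer partner, and Rdh10, which makes retinal, were higher without overlap at 0.84 ± 0.60 and 0.49 ± 0.41.

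Chromatin regulators as a list did not shift (24 of 45 lower, median -0.01). Without overlap 4 of the 45 were lower and 0 higher, against 6.09% and 5.45% of all tested genes, so this count is not read as a shift of the list. Ezh2, the methyltransferase of Polycomb repressive complex 2, read 385, 538 and 937 in GFPhigh cells and 2416, 2247 and 2114 in GFP- cells. The GFP- samples lay close together and above every GFPhigh sample, with a log2 fold change of -1.96 ± 0.44. Suz12, a core subunit of the same complex, read 2667, 2142 and 2868 in GFPhigh cells and 3436, 5061 and 4355 in GFP- cells (-0.74 ± 0.23). The third core subunit, Eed, overlapped, and the alternative methyltransferase Ezh1 had 0.41 with overlap. Dnmt3b, a de novo DNA methyltransferase, read 1551, 1079 and 1539 in GFPhigh cells and 3139, 3059 and 2680 in GFP- cells (-1.11 ± 0.29), while Dnmt3a had 0.70 with overlap. Hmgb2, a chromatin protein abundant in dividing cells, had -0.37 ± 0.16.

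Ribosome biogenesis and MYC target genes were lower in 31 of 44 with a median of -0.25, 6 lower and 1 higher without overlap. Nolc1, a nucleolar assembly factor, read 1529, 1439 and 2078 in GFPhigh cells and 3434, 3279 and 3343 in GFP- cells (-1.01 ± 0.26), and its 3 probe sets ran from -1.18 to -0.91. Gnl3 (nucleostemin), Nop56 and Wdr12, which build ribosomal subunits, were lower without overlap at -0.97 ± 0.39, -0.38 ± 0.16 and -0.48 ± 0.20. The 1 member that was higher without overlap was the MYC paralogue Mycn, at 6919, 7826 and 6765 in GFPhigh cells and 4920, 5083 and 6300 in GFP- cells (0.41 ± 0.14), and Myc itself had -0.43 ± 0.27 with overlap. The median was -0.15 without GFPhigh replicate 2 and -0.11 between the samples numbered 3. Cytoplasmic ribosomal protein genes were higher in 33 of 37, but by a median of 0.10, with 0 of 37 free of overlap, and the median was 0.03 with quantile normalization and 0.25 with median centring.

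Energy genes showed no shift of oxidative phosphorylation, with 30 of 61 higher and a median of 0.00. Of its members Cox5a, of cytochrome oxidase, read 1710, 1646 and 2915 in GFPhigh cells and 3444, 4741 and 3100 in GFP- cells (-0.88 ± 0.30), and Cycs, cytochrome c, had -0.65 ± 0.22. TCA cycle and fatty acid oxidation genes were lower in 24 of 33 with a median of -0.12. Glycolysis and hypoxia genes were higher in 20 of 33 with a median of 0.14, and 5 were higher and 0 lower without overlap. The first of these 5 was Epas1 (HIF-2α), the hypoxia-inducible factor, which had the smallest p of all genes. It read 3190, 888 and 1571 in GFPhigh cells and 102, 78.1 and 61.5 in GFP- cells (4.38 ± 0.68, adjusted p = 0.862 in limma), and 3.29 with a pseudocount of 100. A second probe set of Epas1 gave 0.09.

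The others of the 5 were metabolic enzymes. Eno2, an enolase, read 1319, 543 and 806 in GFPhigh cells and 126, 267 and 54.8 in GFP- cells (2.77 ± 0.77). Pdk4, which blocks entry of pyruvate into the TCA cycle, read 476, 325 and 147 in GFPhigh cells and 16.4, 128 and 16 in GFP- cells (3.13 ± 1.09, and 1.43 with a pseudocount of 100). P4ha1, a prolyl hydroxylase of collagen, had 1.70 ± 0.67, and Ldhb, lactate dehydrogenase B, 0.47 ± 0.21. Pkm, pyruvate kinase, overlapped between the groups and had -0.23 ± 0.21.

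Signalling lists were mixed. Notch and Wnt genes were higher in 19 of 25 with a median of 0.25, 2 higher and 2 lower without overlap. Rbpj, the DNA-binding partner of activated Notch, read 3993, 3776 and 2128 in GFPhigh cells and 1506, 1343 and 1550 in GFP- cells (1.12 ± 0.32), and Lrp5 and Fzd4, receptors of Wnt, were lower without overlap at -3.26 ± 1.2 and -2.67 ± 1.40, or -1.57 and -1.30 with a pseudocount of 100. Lrp5 had -2.0 without GFPhigh replicate 2, and Fzd4 had -0.83 without GFPhigh replicate 1. RAS to ERK genes were higher in 19 of 24 with a median of 0.20, 0 higher and 1 lower without overlap. That 1 was Dusp6, an ERK phosphatase induced by ERK, at 1100, 1265 and 1247 in GFPhigh cells and 2274, 1296 and 2222 in GFP- cells (-0.64 ± 0.36). Cytokine receptor genes had a median of -0.03, and Il18r1, a receptor of interleukin-18, was lower without overlap at 51.1, 25.3 and 37.6 in GFPhigh cells against 166, 366 and 467 in GFP- cells (-3.06 ± 0.85, and -1.58 with the pseudocount).

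TGF-beta and BMP genes had a median of -0.21, which was 0.24 without GFPhigh replicate 2, with 4 higher and 4 lower without overlap. Bmp4, a ligand, read 202, 154 and 274 in GFPhigh cells and 40.2, 27.5 and 33.7 in GFP- cells (2.61 ± 0.84, and 1.19 with a pseudocount of 100). It passed the filter on low signals through its GFPhigh arrays alone. Adhesion genes had a median of 0.04. Gja1 (connexin 43), a gap junction protein, was the lower gene of smallest p, at 346, 236 and 825 in GFPhigh cells and 2392, 2862 and 2965 in GFP- cells (-2.74 ± 0.52), and its 6 probe sets all pointed the same way, from -3.21 to -1.14. Itga6, an integrin chain, was higher without overlap at 0.60 ± 0.24, while Itgb1, its usual partner, was lower on its brightest probe set at -1.10 ± 0.46, with 6 probe sets from -1.10 to 2.58, so its direction is not settled.

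Interferon response genes had a median of 0.07, and Ifitm1, an interferon-inducible membrane protein, read 10256, 11207 and 8889 in GFPhigh cells and 6515, 8579 and 8122 in GFP- cells (0.39 ± 0.13). In the MHC list, H2-DMb2, which loads peptides on class II, was higher without overlap (2.84 ± 0.97) and H2-Ob, which opposes that loading, was lower, at 51.2, 5.6 and 61.6 in GFPhigh cells and 450, 1059 and 193 in GFP- cells (-4.11 ± 1.17, and -2.06 with a pseudocount of 100). Among p53 targets, 11 of 20 were higher with a median of 0.16, 5 higher and 2 lower without overlap. Plk2, a polo-like kinase, read 821, 1703 and 1040 in GFPhigh cells and 212, 65.8 and 238 in GFP- cells (2.92 ± 0.70), with 2 probe sets at -2.56 and 2.92, so its direction is not settled. Gadd45a, a DNA damage response gene, was lower at 86.4, 11.2 and 451 in GFPhigh cells and 640, 801 and 758 in GFP- cells (-3.27 ± 1.2), or -1.88 with a pseudocount of 100 and -1.89 without GFPhigh replicate 2.

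The other genes of smallest p among those free of overlap were spread over many functions. Higher in GFPhigh cells were Ndnf, a secreted glycoprotein, at 3271, 3329 and 957 against 25, 179 and 9.6 in GFP- cells (5.96 ± 1.10, and 3.88 with a pseudocount of 100), Clip3, Zfp982, Ntf5, Gprin2, Meis3, Gimap3, Morc4, Ttc28 and Usp27x, with log2 fold changes from 1.99 to 5.38. Clec1a, a C-type lectin receptor, read 3180, 3834 and 3934 in GFPhigh cells and 1418, 881 and 1571 in GFP- cells (1.54 ± 0.31), and its second probe set gave 0.86. Gimap3, a GTPase of lymphoid cells, read 1767, 2913 and 1266 in GFPhigh cells and 311, 539 and 362 in GFP- cells (2.25 ± 0.50). Ntf5 and Meis3 were below the array median in every GFP- sample, and with a pseudocount of 100 they were at 1.87 and 2.09 in place of 4.82 and 4.85. Gprin2 was at 3.08 in place of 5.38.

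Lower in GFPhigh cells, beside the cell cycle and chromatin genes above, were Dhrs4, a retinol and carbonyl reductase, at 696, 474 and 1246 against 3133, 2077 and 2849 in GFP- cells (-1.83 ± 0.44), Ska1, a spindle and kinetochore protein (-4.36 ± 1.07, 3 probe sets from -4.36 to 0.55), Tanc2, Zmynd19, Btnl9 and Lrrc66. Ska1, Tanc2, Btnl9 and Lrrc66 were under 100 in all 3 GFPhigh samples, and with a pseudocount of 100 their log2 fold changes were -1.77, -1.78, -1.78 and -1.72. Abcb1a, the efflux pump P-glycoprotein behind the dye exclusion of HSCs, was higher at 407, 729 and 362 in GFPhigh cells and 112, 49.6 and 108 in GFP- cells (2.50 ± 0.73, and 1.63 with the pseudocount), although its second probe set gave -1.05. Vwf, von Willebrand factor and a marker of platelet-biased HSCs, read 2180, 1243 and 769 in GFPhigh cells and 491, 535 and 551 in GFP- cells (1.28 ± 0.51).

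Among markers of other cell types, members without overlap were 1 of 7 erythroid genes (Tfrc, lower), 2 of 13 megakaryocyte genes (Vwf higher, Itga2b lower), 1 of 6 T and NK genes (Cd4, higher), 2 of 8 endothelial and stromal genes (Pecam1 and Col1a2, lower) and 0 of the granulocyte, monocyte, B cell and mast cell genes tested. Of all tested genes 11.5% were without overlap in either direction, so such counts in short lists say little about these cell types. Granulocyte markers were lower in 8 of 9 tested, with a median of -1.31, but the scores of 1.43, -2.49 and -2.07 in GFPhigh cells and 2.07, -0.59 and 1.71 in GFP- cells show that both groups held samples with and without these transcripts. Summed over the 17 markers on the array, signal ran from 1630 to 15214 in GFPhigh cells and from 2739 to 15448 in GFP- cells. The neutrophil granule gene Ltf read 708, 31.5 and 41.2 in GFPhigh cells and 1014, 20.6 and 1413 in GFP- cells. Within replicates 1 and 2 the granulocyte median was 0.03, and between the samples numbered 3 it was -3.87.

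Erythroid markers had a median of -0.79 over 7 tested genes, with the transferrin receptor Tfrc, which dividing cells also express, at 1304, 215 and 1468 in GFPhigh cells and 2315, 2331 and 2415 in GFP- cells, though its 3 probe sets ran from -1.66 to 1.78. The erythroid regulators Gata1 and Klf1 did not pass the filter. Megakaryocyte, monocyte and T and NK markers had medians of -0.11, -0.04 and -0.05 over 13, 5 and 6 tested genes, and B cell and mast cell lists held 3 and 2. The T cell receptor chains Cd3d, Cd3e and Cd3g, the B cell gene Ms4a1 and the macrophage gene Adgre1 read 67.0 or less on all 6 arrays. Of 24 endothelial and stromal markers on the array 8 were tested, with a median of -0.31 that was 0.10 without GFPhigh replicate 2. Pecam1 (CD31), which HSCs express as well as endothelium, read 526, 235 and 779 in GFPhigh cells and 825, 1784 and 861 in GFP- cells (-1.24 ± 0.61). The part of these cell type markers in other differences was not tested.

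The Nras arrays, which share no sample with the wild-type comparison, went the same way only in part. The wild-type and Nras log2 fold changes had the same sign in 55.6% of the tested genes, with a Pearson correlation of 0.15 and a Spearman correlation of 0.14 across genes, which are not independent. Of the 566 genes higher in wild-type GFPhigh cells without overlap, 371 (65.5%) were above 0 in Nras cells, against 49.7% of all tested genes, and of the 632 lower ones 425 (67.2%) were below 0, against 50.3%. G2/M genes had a median of -1.73 in wild-type and -1.64 in Nras cells, and replication genes -0.59 and -1.06. For quiescence regulators the medians were 0.35 and 0.30, for imprinted genes 0.26 and 1.16, and for oxidative phosphorylation 0.00 and 0.51. Medians of some lists differed in sign, among them granulocyte markers (-1.31 and 3.65), RAS to ERK genes (0.20 and -0.18) and glycolysis and hypoxia genes (0.14 and -0.18). Ezh2 had -2.02 in Nras cells, Cdk6 -1.62, Cdkn1c 1.71 and Gfi1 3.80. Epas1 had 5.29 ± 1.34, at 243.5, 1766 and 46.4 in Nras GFPhigh cells and 16.3, 17.1 and 1.2 in Nras GFP- cells. Its signals in Nras GFPhigh replicate 3 and in every Nras GFP- sample were below the median of their array, so the size of this value is uncertain.

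**Figure D5:**
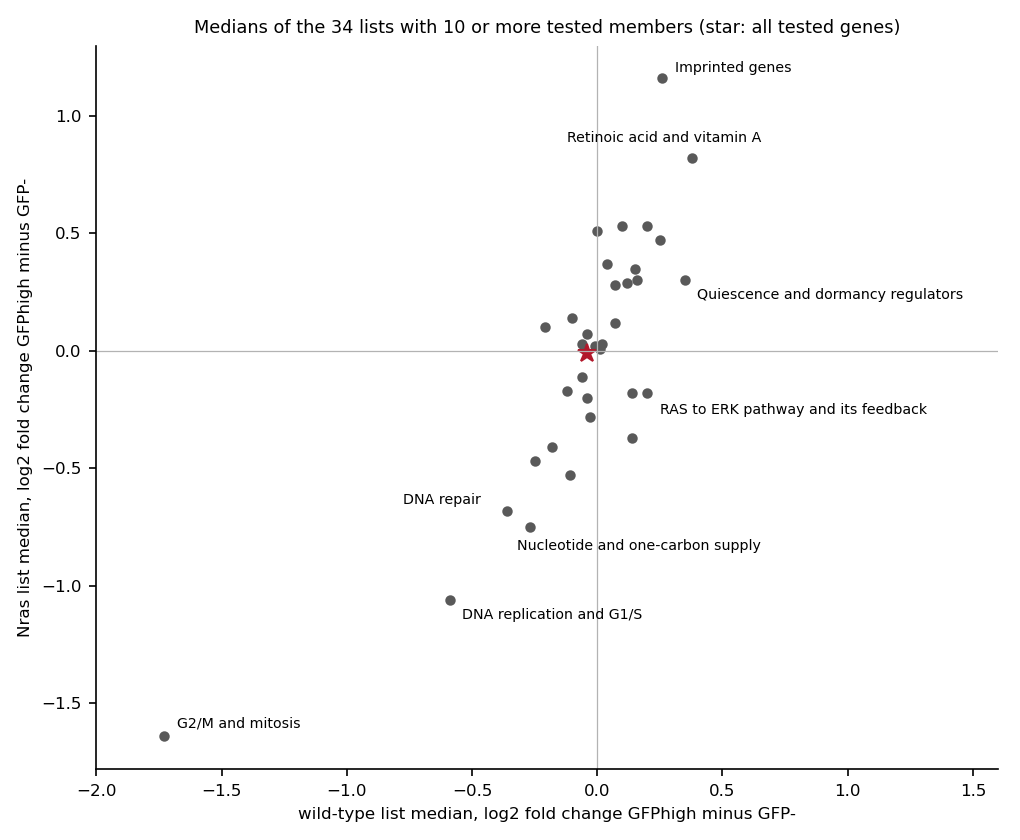
Median log2 fold change, GFPhigh minus GFP-, of the 34 lists with 10 or more tested members, in wild-type cells (horizontal) and Nras cells (vertical); each point is 1 list and the star is all tested genes. The G2/M and replication lists are the lowest in both, at -1.73 and -0.59 in wild-type and -1.64 and -1.06 in Nras cells.

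The difference between the genotypes was tested gene by gene over all 12 arrays. Limma called 0 of 10377 genes (0.0%), with 463 at an unadjusted p under 0.05 (4.46%), so no gene of this comparison can be called particular to wild-type cells. The gene with the smallest p of the difference was Usp27x, a ubiquitin-specific protease. It read 2330, 4343 and 1739 in wild-type GFPhigh cells and 982, 326 and 256 in wild-type GFP- cells, but 57.7, 94.4 and 148.9 in Nras GFPhigh cells and 956, 1838 and 1338 in Nras GFP- cells. The wild-type log2 fold change of 2.58 and the Nras one of -3.83 ± 0.70 differed by 6.42 ± 0.99 (adjusted p = 0.211 in limma). Genes of opposite sign in the 2 genotypes included Morc4, at 2.02 in wild-type and -1.49 in Nras cells, Foxo1, at 2.35 in wild-type and -0.60 in Nras cells, Rbpj, at 1.12 and -1.53, and the granulocyte gene Ngp, at -3.99 (-2.37 with a pseudocount of 100) and 5.61. Each of these differences had an adjusted p of 0.96 in limma.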

How the data were processed

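Per the labels, 2 ug of total RNA from sorted cells was turned into biotinylated cRNA for each Affymetrix array. The authors deposited signal intensity values made with MAS5, per the submitters' processing notes; its version and settings are not given in the sources used here. Intensity values are linear, and 3 zeros were set to 0.1 before log2. Of 45101 probe sets, 34945 carried 1 gene symbol in the platform annotation, 932 several and 9160 none, besides 64 controls. For each of 18193 genes the probe set with the highest mean signal over the 12 arrays was used, and 10377 genes above the array median on at least 3 of the 6 wild-type arrays were tested. A gene could therefore pass through the 3 arrays of 1 group alone, which favours genes high in that group. Limma 3.58.1 in R 4.3.3 (lmFit, then eBayes with an intensity trend) gave SE and two-sided p, with Benjamini-Hochberg adjustment over all tested genes. Array number and signal limit the precision. On normal values simulated with the mean and spread of each gene, 25.7% of log2 shifts of 2 and 73.8% of shifts of 4 were called among 10377 genes. The simulated spread was independent between arrays and equal for all of them, so no array stood apart as GFPhigh replicate 2 did. These shares also depend on how many genes were shifted, so they do not give the power of the real arrays. The samples were grouped by title. Same-numbered GFPhigh and GFP- samples were not treated as pairs.

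The 41 gene lists (1436 entries, 1311 on the array), the members and the tests were chosen with earlier results of these data known. Genes were named by a rule: 15 each way of smallest p among those whose groups do not overlap and whose higher group lies above its array's median, up to 6 of each list on the same terms, and a fixed set of cell cycle, HSC and marker genes. Genes outside this rule, chosen after their values were seen, are Cdca8, Cdc20, Cks1b, Dnmt3a, Eed, Ezh1, Grb10, Hmmr, Incenp, Kif20b, Kif23, Lmo2, Mcm4, Mcm6, Mcm7, Ncaph, Ndc80, Nusap1, Pkm, Pttg1, Runx1, Smc4, Spc25 and Vldlr. Promoters came from a RefSeq table on GRCm38.p6. Alternatives covered the arrays in the fit, array weights, normalization, the filter, the pseudocount, the choice of probe set, the replicate block, the variance trend and leaving out arrays.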

Additional observations from a re-analysis of the deposited data

How the results depend on the processing

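Limma called 0 genes under every alternative and at an adjusted p under 0.1, with smallest adjusted p values from 0.101 to 0.974, and 0 genes for the difference between genotypes. The number of arrays and the spread at low signal limit what single genes can show. The count of genes at an unadjusted p under 0.05 was 544, and became 207 with all 12 arrays in the fit, 915 with no filter, 340 with the filter at the 75th percentile and 994 with each probe set by itself, the last 3 over other numbers of features. Genes higher and lower without overlap numbered 855 and 1041 with no filter, 368 and 397 with the 75th percentile filter, 1019 and 1240 with each probe set and 1705 and 1951 within replicates 1 and 2, where fewer samples leave more genes without overlap. As any 1 array was left out, the 3 counts ran from 408 to 862, from 973 to 1239 and from 1043 to 1383.

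Whether the replicate numbers pair the samples is not settled. Deviations of same-numbered samples correlated at 0.03, 0.08 and 0.06. Those of differently numbered samples ran from -0.11 to 0.07, the highest being that of GFPhigh replicate 3 with GFP- replicate 1. Sex-linked transcripts set replicate 3 apart in both groups, and such weak correlations cannot exclude a pairing. With the replicate block limma called 0 genes and 617 had an unadjusted p under 0.05.

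Of 615 list medians under alternatives that keep or drop several arrays, 31 moved by more than the spread between samples; the cause was not tested. With the mean over probe sets, medians were 0.15 for HSC surface, 0.64 for imprinted, 0.04 for retinoic acid, 0.40 for MHC, -0.66 for repair, -0.64 for nucleotide and -0.14 for chromatin genes. With each probe set they were 0.25 for HSC surface, 0.64 for imprinted and -0.51 for nucleotide genes. Without probe sets shared by several transcripts they were 0.22 for HSC surface, 0.84 for retinoic acid and 0.26 for adhesion genes. With median centring they were 0.16 for HSC surface, 0.03 for TCA cycle, 0.11 for redox, 0.05 for heat shock and 0.14 for chromatin genes, and HSC surface genes had 0.12 with quantile normalization. With the 75th percentile filter they were 0.12 for HSC surface, 0.04 for retinoic acid and 0.32 for megakaryocyte genes. Apoptosis genes had -0.50 within replicates 1 and 2. Between the samples numbered 3, an alternative chosen after seeing the data, medians were -0.17 for HSC surface, -0.01 for imprinted, -0.01 for Notch and Wnt, -0.06 for TCA cycle, 0.06 for redox, 0.05 for apoptosis, -0.16 for chromatin and 0.32 for PI3K genes.

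As any 1 array was left out, medians ran from -0.31 to 0.14 for G1 regulators, -0.03 to 0.21 for HSC surface, 0.06 to 0.50 for quiescence, -0.24 to 0.15 for cytokine receptors, 0.09 to 0.41 for p53 targets, -0.29 to -0.06 for ribosome biogenesis, -0.16 to -0.06 for TCA cycle, -0.14 to 0.17 for autophagy, -0.42 to 0.04 for apoptosis and -0.12 to 0.08 for chromatin genes. The G2/M and replication medians stayed below 0, from -1.80 to -0.85 and from -0.79 to -0.42.

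Of 151 named genes, 20 changed sign somewhere; the cause was not tested. With the mean over probe sets these were Cdc20 (-1.28), Cdkn1b (0.09), Dnmt3a (-0.28), Eed (0.38), Erg (-0.25), Foxo3 (-0.03), Itgb1 (0.39) and Kif20b (-1.82). Without shared probe sets they were Cdc20 (-1.01), Cycs (0.19), Kif20b (-2.43) and Slamf1 (-0.48). Between the samples numbered 3 they were Cdkn1a (-0.28), Dnmt3a (-0.33), Foxo3 (-0.06), Grb10 (-0.07), Kif20b (-0.68), Meis1 (0.00), Pcna (-0.27) and Procr (-0.20). Eed (0.09) and Ltf (0.05) changed sign within replicates 1 and 2, Eed (0.09) with median centring, Foxo3 (-0.05) and Pcna (-0.06) with quantile normalization, Pcna (-0.07) with array weights and Nusap1 (-0.08) with a pseudocount of 100. As any 1 array was left out, Cdc20 ran from -0.04 to 0.24, Eed from -0.27 to 0.08, Foxo3 from -0.04 to 0.05, Hlf from -0.02 to 0.31, Incenp from -1.62 to 0.66, Kif20b from -0.59 to 0.79, Meis1 from -0.69 to 0.01, Nusap1 from -1.30 to 3.54, Pcna from -0.07 to 0.13 and Runx1 from -0.02 to 0.20.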

Other observations

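Translation factors had a median log2 fold change of 0.07 over 29 tested genes, with 4 lower and 1 higher without overlap. Eif4e, the cap-binding protein, read 2508, 2519 and 2725 in GFPhigh cells and 3372, 3689 and 3173 in GFP- cells (-0.40 ± 0.21, SE), although its 4 probe sets ran from -0.62 to 0.56. Mitochondrial ribosomal proteins had a median of -0.04 over 55 genes, and Mrps5, of the small subunit, read 398, 916 and 726 in GFPhigh cells and 1278, 1509 and 1435 in GFP- cells (-1.13 ± 0.46). Heat shock proteins and chaperones were lower in 22 of 32 with a median of -0.10. The largest of the 3 without overlap was Ahsa1, an activator of HSP90, at 1727, 1311 and 1619 in GFPhigh cells and 2922, 2254 and 2198 in GFP- cells.

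Redox and detoxification genes had a median of -0.04 over 36 genes, 4 higher and 3 lower without overlap. Gclm, of glutathione synthesis, read 854, 190 and 426 in GFPhigh cells and 1321, 1604 and 1692 in GFP- cells (-1.90 ± 0.60), while Gstm1, a glutathione transferase, read 3936, 3268 and 3055 in GFPhigh cells and 2218, 2265 and 2616 in GFP- cells (0.53 ± 0.23). Autophagy and lysosome genes had a median of -0.06, and Gabarap, which coats autophagosomes, read 2827, 3530 and 3160 in GFPhigh cells and 2318, 1949 and 2414 in GFP- cells (0.51 ± 0.24). Its kinase-side counterpart Ulk2 was lower, at 501, 348 and 631 in GFPhigh cells and 881, 1358 and 805 in GFP- cells.

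Apoptosis regulators had a median of -0.18 over 21 genes, with the pro-death gene Bak1 lower without overlap at 152, 65.4 and 195 in GFPhigh cells and 349, 288 and 491 in GFP- cells (-1.56 ± 0.74). PI3K, AKT and mTOR genes had a median of 0.02. Of these, Pik3r1, the regulatory subunit of PI3K, read 8540, 9065 and 7418 in GFPhigh cells and 5671, 7262 and 7173 in GFP- cells (0.32 ± 0.14). Sterol and fatty acid genes had a median of 0.14, and Elovl5, a fatty acid elongase, read 2824, 4043 and 4409 in GFPhigh cells and 5296, 7087 and 5480 in GFP- cells (-0.68 ± 0.21).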
